A study of Mus musculus with 2 samples.

Results

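The small proline-rich protein (Sprr) genes were followed in mouse blood by 10 member genes, namely Sprr1a, Sprr1b, Sprr2a1, Sprr2a2, Sprr2b, Sprr2d, Sprr2e, Sprr2f, Sprr2h and Sprr3. The members were taken by name: every probe outside the array's controls that carries one of these symbols was used, which gave 14 probes of 56605. Of the 10 genes, 7 had 1 probe, Sprr2a2 had 3 and Sprr1b and Sprr2h had 2 each. The family was selected on the large heat-minus-control difference at a single Sprr2a2 probe, so that difference is a description and has no test.

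Total RNA from blood was hybridised to 1-colour Agilent arrays, 1 for the heated sample and 1 for the control sample. The heated sample was kept for 1 h in a 37 °C water bath, moved to 38.5 °C for another 1 h and set against the control to find the genes that respond. The labels give no strain, age, sex or control temperature and do not say whether animals or drawn blood were heated, so the heat itself, the water bath and the handling cannot be told apart. Red cells were lysed apart from white cells and globin RNA was depleted in both samples, and the arrays share a slide and a scan run. The labels mention 3 replicates, but each group has 1 array here, so no value below has a replicate check or a p-value. In bulk blood, fewer cells of a type and less RNA per cell cannot be told apart.

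Sprr proteins are precursors of the cornified envelope, the protein shell beneath the membrane of the outermost cells of skin and other stratified epithelia. Transglutaminases join them to each other and to loricrin and involucrin, and the repeats rich in proline act as flexible bridges. The genes lie side by side in the epidermal differentiation complex, and several are known for induction in injured or inflamed epithelia. They are best known from epithelia rather than from blood.

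The probes of Sprr2b and of 2 Sprr genes outside the member list, Sprr2k and Sprr2j-ps, are shown because they gave signals well above background and share a stretch of sequence. Capitals mark CCAAAGTGCCCTGA, the longest stretch that the 3 have in common, of 14 bases. Searched on the strand of the probes, it was in these 3 and in no other of the 56605 probes.

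Sprr2b probe: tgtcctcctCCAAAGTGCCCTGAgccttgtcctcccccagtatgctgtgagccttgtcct

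Sprr2k probe: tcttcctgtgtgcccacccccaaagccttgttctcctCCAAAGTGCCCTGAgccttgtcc

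Sprr2j-ps probe: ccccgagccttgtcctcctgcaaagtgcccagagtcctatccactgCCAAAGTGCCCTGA

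They lie on the plus strand of mm9, the build the file headers give, at chr3:92121449-92121508 for Sprr2b, chr3:92237308-92237367 for Sprr2k and chr3:92222836-92222895 for Sprr2j-ps. The Sprr2b and Sprr2k probes have 31 of 32 aligned bases in common, so their signals are uncertain as values of single genes. Exon and intron positions were not analysed here.

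The Sprr2a2 probe with the large difference is shown by its first 30 bases, beside the same stretch of 6 probes that are not Sprr probes. In these 6, capitals mark the bases that are the same as in the Sprr2a2 probe. A probe called unnamed has an identifier in place of a gene symbol, for some that of an Ensembl transcript.

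Sprr2a2 probe, chr3:92060587-92060646: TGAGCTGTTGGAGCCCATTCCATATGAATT

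Unnamed probe, chr3:92277148-92277207: TGAGCTGTTGGAGCCCATTCaATATaAATT

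Unnamed probe, chr12:88761891-88761950: TGAGCTGTTGGAGCCCATTCCATAcGAATa

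Unnamed probe, chr4:17183248-17183307: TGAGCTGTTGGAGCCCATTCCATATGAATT

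Unnamed probe, chr1:72051285-72051341: TGAGCTGTTGGAGCCCATTgCATgTGAATT

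Unnamed probe, chr13:88618601-88618660: aGAGCTGTTGGgGCCCATTCCATAccAATT

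Gm20764 probe, chr19:45952140-45952199: TGAGCTGTTGGAGCCCATTCCgTATGAATT

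Of these 30 bases, the probe on chromosome 4 shared all 30 and the Gm20764 probe 29. A probe of Rpl21, the gene of a protein of the large ribosomal subunit, at chr5:147647508-147647567, matched further along. Bases 19 to 39 of the Sprr2a2 probe are given beside it, and 20 of these 21 bases were the same. The whole alignment ran over bases 19 to 58 and was less alike, with 34 of 40 bases the same (85%).

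Sprr2a2 probe, bases 19 to 39: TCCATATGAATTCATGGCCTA

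Rpl21 probe: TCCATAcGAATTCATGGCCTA

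Most Sprr genes gave no measurable signal in the heated blood (heat below) or the control blood (control below). By the scanner software's flag, only 2 of the 14 member probes (14.3%) were well above background on each array, 1 of Sprr2a2 and that of Sprr2b. The same share over all probes was 53.8% for the heat array, against 52.0% for the control array. The other 12 probes were not well above background on either array, and 8 of the 10 genes had no probe that was. The lowest flagged signal was 24.9 in heat and 31.0 in control.

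**Figure D1:**
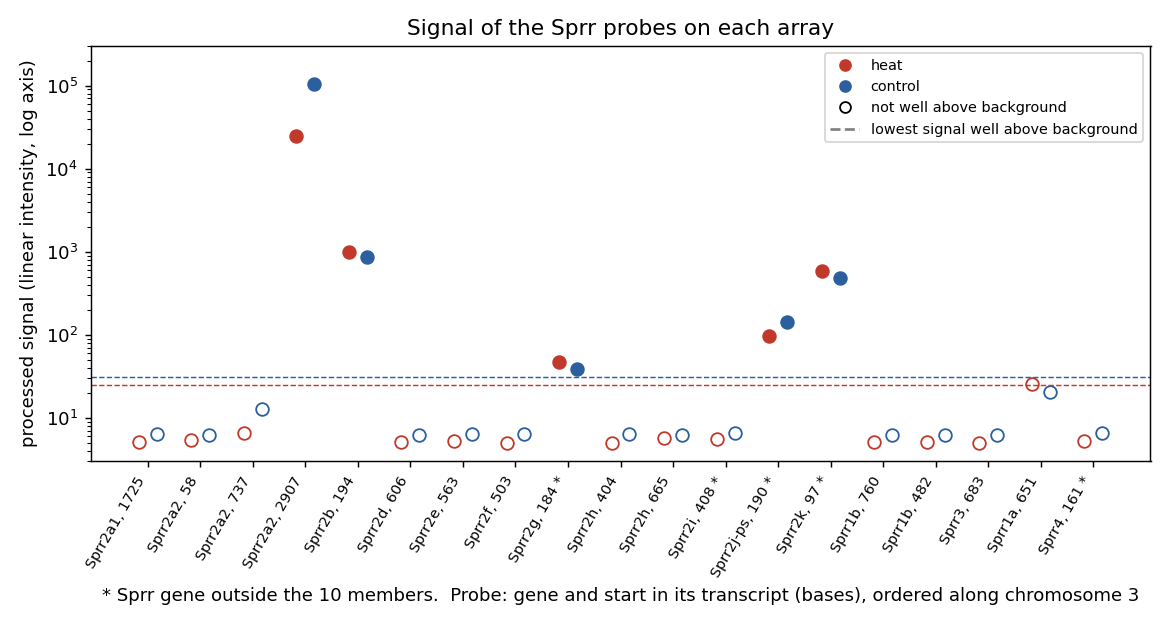
Processed signal (linear intensity, log axis) of every Sprr probe on the heat array (red) and the control array (blue), ordered along chromosome 3 and labelled by gene and start in the transcript. Asterisks mark the Sprr genes outside the 10 members, open circles stand for signals not well above background, and dashed lines give each array's lowest signal above it; only 5 of the 19 Sprr probes have filled circles.

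Of the 12 undetected probes, 10 were at the floor that the scanner software puts in place of a low signal, on both arrays. Their values ran from 4.99 to 5.79 in heat and from 6.18 to 6.43 in control, and values at the floor have no order. The 10 are the probes of Sprr2a1, Sprr2d, Sprr2e, Sprr2f and Sprr3, both probes of Sprr1b, both of Sprr2h and 1 of Sprr2a2.

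The Sprr2 genes encode short, closely related envelope precursors. Sprr2d, at chr3:92144721-92144780, had 5.10 in heat and 6.18 in control, and its spot before correction averaged 43.7 in heat over a local background of 44 and 46.9 in control over 50. Sprr2e, at chr3:92157288-92157347, had 5.33 in heat and 6.43 in control. Sprr2f, at chr3:92170259-92170318 and known for its response to estrogen in the uterus, had 5.01 in heat and 6.32 in control. These are floor values, so for none of these genes can a direction be given.

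Sprr2h had 5.02 in heat and 6.35 in control at chr3:92190899-92190958. Its other probe, at chr3:92191160-92191219, had 5.79 in heat and 6.27 in control, so both probes of this gene stayed at the floor. The Sprr1 and Sprr3 genes lie on the minus strand, unlike the Sprr2 genes on the plus strand.

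Sprr1b, an envelope precursor of stratified epithelia, had 5.15 in heat and 6.18 in control at chr3:92240731-92240790, and 5.15 in heat and 6.21 in control at chr3:92241009-92241068. Sprr3, the form of the oral and esophageal lining, had 4.99 in heat and 6.20 in control at chr3:92260903-92260962. Both Sprr1b probes and the Sprr3 probe were thus at the floor too.

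Sprr1a, an envelope precursor also known to be induced in injured neurons and in stressed heart muscle, came closest to detection among the undetected genes. Its probe at chr3:92287955-92288014 had a signal of 25.8 in heat and 20.5 in control, with errors of 6.98 in heat and 7.23 in control. Before correction the spot averaged 62.6 in heat over a local background of 37, and 63.9 in control over 41. Both signals were above the local background by a milder flag of the software, but neither was well above it, and no difference was computed.

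Sprr2b, a member of the Sprr2 group, had a clear signal on both arrays. Its processed signal was 997 in heat and 868 in control. After scaling, the difference was 0.24 on the log2 scale (1.18-fold), with a scanner error of 0.20 propagated from the errors that the software gives for each spot. The difference exceeded its scanner error by little, and 20.2% of the 28755 probes measured on both arrays were at least as far from 0.

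One of the 3 probes named Sprr2a2 carried the one large difference. This probe, at chr3:92060587-92060646, had a signal of 24712 in heat, against 105757 in control. The difference was -2.06 with a scanner error of 0.20, a 4.17-fold lower value in the heated sample. It was the only member probe at least 2-fold lower, and none was at least 2-fold higher, beside 0.442% of all measured probes lower and 0.247% higher. Since this contrast chose the family, nothing is read from those shares.

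**Figure D2:**
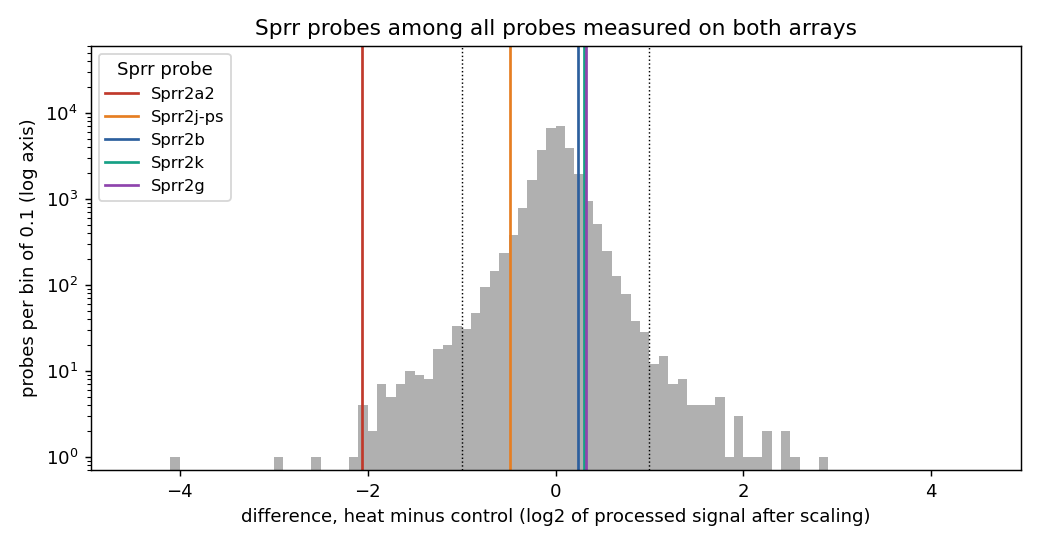
Number of probes (log axis) by difference in log2 processed signal, heat minus control, for all 28755 probes measured on both arrays (grey), with lines for the 5 measured Sprr probes and dotted lines at 2-fold. The Sprr2a2 probe at -2.06 sits in the lower tail and the other 4 lie between -0.49 and 0.32.

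Only 8 measured probes, this one included, had a difference as low. The 3 named genes with the nearest differences were Prrg4 at -2.06, Cldn12 at -2.10 and Gtsf1 at -1.99.

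The spot itself was less even in the heated sample: the standard deviation over its pixels was 11.7% of its mean signal there, against 2.89% in the control sample. It carried no saturation or outlier flag on either array. The 14 measured spots within 2 rows and 2 columns of it had a median difference of -0.11, from -1.05 to 0.17. The part of the spot's pixels or place in the difference was not tested.

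The 3 probes named Sprr2a2 did not give the same picture. The first, at chr3:92054627-92054686, was at the floor with 5.40 in heat and 6.20 in control, and its spot before correction averaged 38.1 in heat over a local background of 35. The second, at chr3:92058417-92058476, had 6.51 in heat, at the floor, and 12.9 in control, above the floor but not well above background. The Sprr2a1 probe, at chr3:92027346-92027405, was at the floor too, with 5.12 in heat and 6.36 in control. All 3 Sprr2a2 probes list RefSeq records of both Sprr2a1 and Sprr2a2, copies whose RefSeq start windows were the same at 300 of 300 bases, so no value here can be given to one of the copies. The first probe also matched the RefSeq start window of Sprr2b at 59 of its 60 bases. The 4 probes start at different places in their transcripts, at bases 58, 737 and 2907 for Sprr2a2 and 1725 for Sprr2a1.

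Only 1 of the 19 Sprr probes resembled probes outside the family, and it was the Sprr2a2 probe with the large difference. A resemblance here is an alignment of at least 30 bases at 85% identity or more. The probe had 8 such relatives, over 34 to 50 aligned bases, while 7.15% of all probes had at least 1 among the probes of other genes. The relatives were chosen after their values had been seen. They comprise the 7 described above and an unnamed probe at chr1:181855048-181855107 (37 of 43 bases).

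All 8 relatives were bright on both arrays, and none was 2-fold lower in the heated sample. Over the array, 914 of the 28755 measured probes had a control signal of at least 50000, and 3 of those 914 were at least 2-fold lower. Over all measured probes the share was 0.442%, so the lack of such a difference is not particular to the relatives. Their signals ran from 60430 to 139297 in heat and from 81655 to 152872 in control. Their differences ran from -0.55 to 0.07, with a median of 0.00. The unnamed relative on chromosome 3, inside the Sprr cluster, had 118020 in heat and 121830 in control, a difference of -0.01.

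The Rpl21 relative had the lowest difference of the 8, -0.55, with a signal of 60430 in heat and 90749 in control. Another Rpl21 probe on the array had 61514 in heat, against 68800 in control, a difference of -0.12. The relative on chromosome 4, whose letters match the Sprr2a2 probe at 39 of 40 aligned bases, was spotted 10 times. Over the 9 of those spots with no outlier flag its difference was 0.07 ± 0.02 (SD over spots of 1 array pair, not over samples). Which RNA gave the signal of the Sprr2a2 probe was not tested, and its value is therefore given for the probe and not for Sprr2a2 as a gene.

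**Figure D3:**
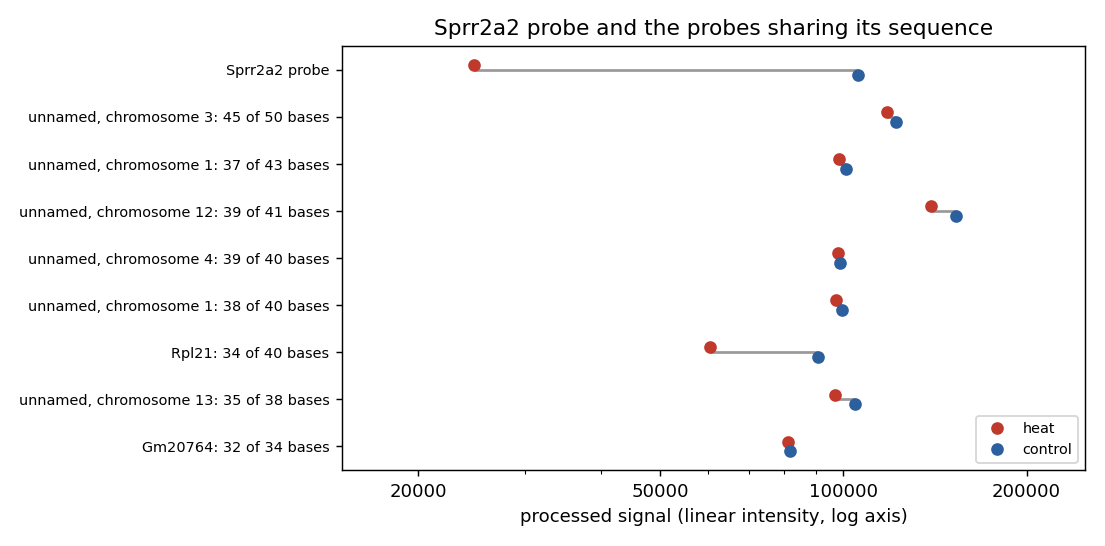
Processed signal (linear intensity, log axis) of the Sprr2a2 probe at chromosome 3 and of the 8 probes that share its sequence, in the heated sample (red) and the control sample (blue), with the number of identical bases over the aligned length. The Sprr2a2 probe has the widest gap, with 24712 in heat and 105757 in control, while the relatives lie between -0.55 and 0.07 in log2 difference.

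Of the Sprr genes outside the member list, 5 had a probe and 3 of these were measured on both arrays. Sprr2k, a member of the Sprr2 group, had a signal of 583 in heat and 484 in control, a difference of 0.31 with a scanner error of 0.21. Sprr2g had 47.1 in heat and 38.8 in control, a difference of 0.32 with a scanner error of 0.35. Sprr2j-ps, a pseudogene by its symbol, had 98.0 in heat and 141 in control, a difference of -0.49 with a scanner error of 0.23.

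Sprr2g and Sprr2j-ps were dim, and their differences shrank to 0.12 and -0.31 at the least under another background correction. Sprr2i and Sprr4 were at the floor on both arrays. Together with Sprr2b, 4 of the 6 Sprr probes that start before base 200 of their transcript were measured, against 1 of the 13 that start later. The 1 later probe was the Sprr2a2 probe at base 2907. Over all probes for which the files give a start, 37.9% of the 2809 before base 200 were measured on both arrays, against 52.8% of the 48919 later ones. Base 200 was chosen after the values had been seen, and the part of probe position in detection was not tested.

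Of the 5 measured Sprr probes, 4 were richer in G and C than any undetected one, and the Sprr2a2 probe at base 2907 was not. The share of G and C was 58.3% in the Sprr2b probe, 58.3% in Sprr2k, 60% in Sprr2j-ps and 55% in Sprr2g, and 38.3% in the Sprr2a2 probe at base 2907. In the undetected Sprr probes it ran from 31.7% to 50%. All 4 Sprr probes at 55% or more were measured, against 1 of the 15 below. Over the whole array, 61.6% of the probes at 55% or more were measured on both arrays, against 49.8% of the probes below. The limit of 55% was chosen after the values had been seen, and the part of base composition in detection was not tested.

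RefSeq (GRCm38.p6) holds start windows for 13 of the 15 Sprr genes with a probe, among them all 10 members. The upstream part of the Sprr2b window is shown because Sprr2b was the member with a clear and even signal. Capitals mark the AP-1 motif TGANTCA, the octamer ATTTGCAT, bound by POU factors, and the TATA box TATAAA, searched on both strands.

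Sprr2b upstream, GRCm38.p6 chr3:92316455-92316704, plus strand: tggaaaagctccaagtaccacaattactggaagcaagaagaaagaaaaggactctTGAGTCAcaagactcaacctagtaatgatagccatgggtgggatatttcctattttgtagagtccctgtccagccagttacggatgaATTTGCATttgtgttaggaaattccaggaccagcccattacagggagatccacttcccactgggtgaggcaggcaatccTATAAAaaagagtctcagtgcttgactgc

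Over the 250 bases before the start, the AP-1 motif was in 7 of the 10 member windows, beside 6.75% of 32851 windows of all genes. The octamer was in 5 of the 10, beside 1.60%, and the TATA box in 8 of the 10, beside 12.4%. The windows of Sprr2a1 and Sprr2a2 held none of the 3 motifs. Members share ancestry, and windows of some copies are nearly the same letters, with 264 of 300 bases alike between Sprr2d and Sprr2e. Other pairs were far less alike by position, with 93 of 300 for Sprr2b and Sprr2f and 67 for Sprr2a2 and Sprr2b. The windows are thus not independent, and the motif counts are descriptions.

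Factors of keratinocyte differentiation, some of which bind such motifs, were mostly measured, with 22 of 27 on both arrays, 11 with a difference above 0 and 11 below, and a median of -0.01. Of all 37324 genes on the array, 18685 were measured on both arrays. Over these 18685 the median was 0.01 and 52.2% lay above 0. At least 2-fold higher were 0.209% and lower 0.450% (0.658% in either direction). Pou2f3, a POU factor of the epidermis, had 235 in heat and 32.8 in control, a difference of 2.88 from 1 of its 2 probes and the only one of 2-fold in the list. Its control signal was close to 31.0, the lowest flagged signal in control. Under normexp background correction its difference was smaller, at 1.69 (75th percentile) and 1.64 (quantile). Fosl1, an AP-1 subunit, had -0.64, Grhl1, a factor of epidermal barrier genes, -0.39 and Prdm1, a repressor, -0.31. Of the genes of cytokine signalling through gp130, the IL-4 receptor and STAT factors, listed together with genes of IL-33 and IL-1 family signalling such as Il1rap and Myd88, 14 of 22 were measured, with a median of -0.08 and none 2-fold apart, and Socs1 (an inhibitor, -0.55), Il1rl1 (the IL-33 receptor, -0.54), Stat3 (0.32) and Il22ra1 (-0.27) lay farthest from 0.

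Of 35 other genes of the epidermal differentiation complex, 9 were well above background in heat and 7 in control. The same held for 19842 and 19240 of all 37324 genes. The list holds mainly envelope genes, but also Smcp, the gene of a sperm mitochondrial protein, and Pglyrp3 and Pglyrp4, peptidoglycan recognition proteins, and 1 of the 9 was Pglyrp3, with 26.0 in heat and 20.6 in control. Lor (loricrin) and Ivl (involucrin), main partners of Sprr proteins in the envelope, were detected on neither array. The 7 measured on both had a median of -0.05, with none 2-fold apart, and Lelp1 (0.50), Prr9 (-0.26), Lce6a (0.24) and Lce1a2 (0.10) lay farthest from 0. Lce1k, a late cornified envelope gene, was detected in heat only, with 68.4 in heat and 7.34 in control, at least 2.27-fold higher, a bound against the lowest control signal above background.

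Of 25 genes listed as envelope enzymes and plakins, 10 were well above background in heat and 6 in control. Over all 37324 genes it was 19842 and 19240. The list also holds protease inhibitors such as Serpinb2, desmosome genes such as Dsg1a, and Anxa1. The 6 measured on both had a median of 0.10, with Serpinb2 (0.36), Casp14 (0.32), Tgm2 (0.18) and Anxa1 (-0.05) farthest from 0. The 4 flagged in heat only had heat signals from 25.5 to 29.3, all below 31.0, the lowest flagged signal in control, so these counts rest on limits that differ between the arrays. Among them were Tgm1, the transglutaminase of keratinocytes that joins Sprr proteins, with 28.2 in heat and 19.8 in control, and Evpl (envoplakin), with 25.9 in heat and 28.9 in control. Of 5 wound and stress keratins, 3 were measured. Krt6a had 129 in heat and 56.9 in control, a difference of 1.22. Under normexp background correction that difference fell short of 2-fold (0.74 and 0.68). Krt17 had -0.09 and Krt16 -0.01, the latter the mean of 2 probes at -0.19 and 0.17. Of 14 S100 genes, which lie in the same complex, 11 were measured, with a median of 0.01. Farthest from 0 were S100a3 (0.32), S100a2 (-0.26), S100a16 (-0.14) and S100a9 (0.11). The S100a16 value is the mean of 2 probes, at -0.43 and 0.15.

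The probes around the cluster on chromosome 3 were also counted. The member probes span 261 kb, and 81 probes lay within 1 Mb of the outermost ones, 62 of them outside the family. Of these 62, 18 were detected in heat (29.0%) and 16 in control (25.8%). The 16 measured on both arrays had differences from -0.43 to 0.50, with a median of 0.00. None was 2-fold apart, beside 0.689% of all measured probes, so the lack of such a difference is not particular to this region. Lce1k also lies in this window, but it was detected in heat only and is not among the 16. Its bound given above was at least 2.27-fold higher. The nearest gene before the first member probe was Gm35439, at the floor with 5.04 in heat and 6.18 in control. The nearest gene after the last one was Sprr4, followed outside the family by 2310046K23Rik, with 5.10 in heat and 6.21 in control.

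**Figure D4:**
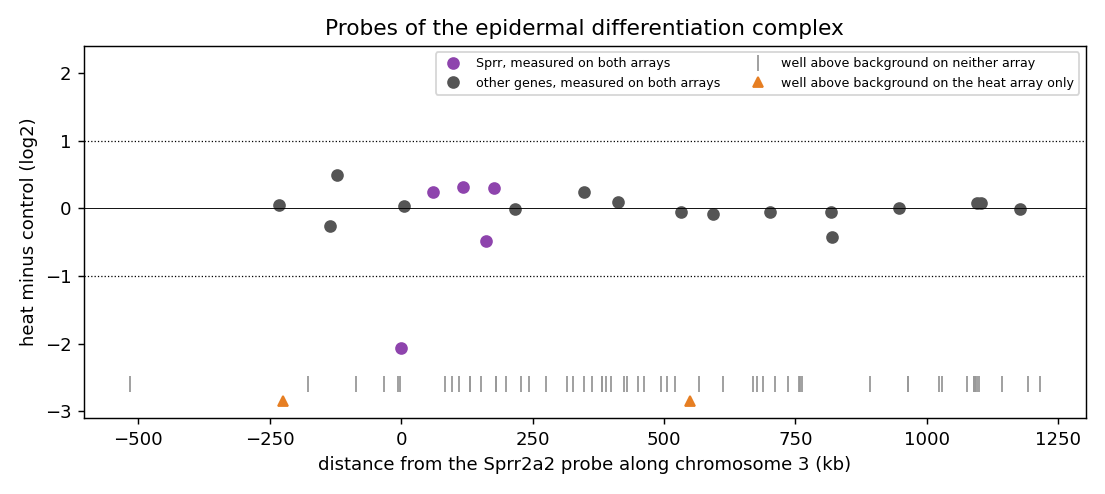
Difference in log2 processed signal, heat minus control, of the probes within 1 Mb of the Sprr cluster against their distance from the Sprr2a2 probe (kb); purple marks Sprr probes and dark grey other probes. Grey ticks stand for probes not well above background on either array and orange triangles for the 2 above it on the heat array only. Of the probes measured on both arrays, the Sprr2a2 probe at -2.06 is alone beyond the dotted 2-fold lines.

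Some of the keratinocyte markers were detected, and none of the markers of general epithelial cells. Over all 37324 genes on the array, 19842 were detected in heat and 19240 in control, a share near that of the keratinocyte markers. None of 6 epithelial markers was well above background on either array, with summed signals of 52.9 in heat and 53.2 in control. Of 9 keratinocyte markers, 4 were, with summed signals of 5206 in heat and 5318 in control. Most of this came from 1 probe of Trp63, with 4476 in heat and 4575 in control. It was the only 1 of the 4 Trp63 probes measured on both arrays. Krt10 had 522 in heat and 529 in control. Itgb4 had 95.8 in heat and 103 in control, from 1 of its 3 probes. Col17a1 had 41.9 in heat and 50.5 in control, from 1 of its 2 probes. Krt5, Krt14, Krt1, Krt15 and Dsg3 were detected on neither array.

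Among blood cells, all 6 monocyte markers were measured, with Lyz2 at 0.06, Csf1r at 0.17 and Adgre1 at 0.00, and 4 of 6 neutrophil markers, with S100a8 at 0.02, S100a9 at 0.11 and Cxcr2 undetected. Of the T cell markers 3 of 5 were measured (Cd4 at 0.18, Lck at 0.14, Cd3e at -0.12, Cd3g and Cd8a undetected). The Cd3e value is the mean of 2 probes, at -0.33 and 0.10. Of the platelet markers 1 of 5 was measured (Itga2b and Gp9 undetected, Pf4 at 0.26). The B cell gene Cd79b had 219 in heat and 179 in control, a difference of 0.33. The B cell genes Cd79a and Ms4a1 and the red cell genes Hbb-b1 and Alas2 were detected on neither array. Summed over each list, signals were 563237 in heat and 569471 in control for the monocyte markers. In the same order they were 59513 and 59930 for neutrophils, 11522 and 9872 for platelets, and 2009 and 1949 for T cells. Most of each of these 3 sums came from 1 gene. It was Csf3r for neutrophils (51463 and 52348), Pf4 for platelets (11483 and 9824) and Cd4 for T cells (1447 and 1410). Which RNA and which cells gave the signal of the Sprr2b probe was not tested.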

How the data were processed

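The deposited scanner files hold linear intensity values of the green channel and flags, made with Agilent Feature Extraction 10.7.1.1 per the file headers (9.1 per the submitters' processing notes). Per the file headers, the processed signal is background-corrected by that software and the probes have mm9 coordinates. The authors' deposited value table holds log2 values, which matched quantile-normalized log2 processed signals, in scale and direction, with r of 1.00 over probes on each array and a median of 5.26 in each column.

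The processed signal was scaled by log2 minus each array's 75th percentile over probes (604 in heat and 620 in control before log2), after outlier spots (168 in heat, 149 in control) were left out and spots of a probe averaged. No spot was saturated. A probe was detected when over 0.5 of its spots were flagged well above background, and genes took the mean difference of their probes detected on both arrays. The call is a log2 difference of 1 (2-fold), with no test, since each group has 1 array, and their number limits the precision. The SD of repeated spots around their probe's mean difference was 0.08. Probe names were updated through RefSeq records of GRCm38.p6 where these matched (32989 of 35886 probes with a record), and no coordinates came from there except those of the printed start window. Probes were aligned with BLAST 2.17.0 (word size 11). Scripts ran in Python 3.11.15 with pandas 2.3.3 and numpy 2.4.6, and in R 4.3.3 with limma 3.58.1 and the data.table package (version 1.17.8). The steps were tested on simulated data with planted differences.

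The members, gene lists and thresholds were chosen with earlier results of these data known. Named genes are all member probes and other Sprr genes, up to 4 genes per list with the largest differences and any at least 2-fold apart, genes beside the cluster, the 3 genes nearest in difference and the first 3 markers per blood cell type, except some B cell and red cell markers that are not reported here; others were chosen after their values were seen. Alternatives were other scalings, normexp background correction (offset 50), mean signal minus local background, the authors' table, no filter on dim probes, a 4-fold threshold, outlier spots kept, detection by negative controls and the brightest probe per gene.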

Additional observations from a re-analysis of the deposited data

How the results depend on the processing

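The Sprr2a2 probe kept its direction and its place beyond 2-fold under each alternative, from -2.11 to -2.05, and Sprr2b lay between 0.18 and 0.24. The count of member probes at least 2-fold lower was 1, and at least 2-fold higher 0, under each alternative run. With detection set by the 95th percentile of negative controls, 3 member probes passed in heat and 4 in control. In the listed genes around the family, 2 (Pou2f3 and Krt6a) were at least 2-fold higher as reported, 1 under normexp with either scaling and under a 4-fold threshold, and 5 with no filter on dim probes, which also gave 2 at least 2-fold lower. With no filter, 3 probes near the cluster were at least 2-fold apart. These filters admit signals near the floor. Under normexp, Krt6a lay at 0.74 (75th percentile) and 0.68 (quantile) and lost its place beyond 2-fold, and Pou2f3 kept it at 1.69 and 1.64. Under normexp, Sprr2g lay at 0.18 (75th percentile) and 0.12 (quantile) and Sprr2j-ps at -0.31 and -0.37, and the cause was not tested. Of all probes, 71 were at least 2-fold higher and 127 lower, against 25 and 32 under normexp with the 75th percentile and 22 and 36 under normexp with quantile normalization. No paired analysis was possible because each group has 1 array, whose replicate number was given in accession order. Signal over background limits 12 of the 14 member probes, for which no difference can be given.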
